A study of Canis lupus familiaris with 17 samples.

Results

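Interleukins are secreted proteins through which leukocytes and stromal cells signal to one another, and their receptors usually pair a ligand-specific chain with a chain shared by several cytokines. IL2RG is the common gamma chain of the IL-2, IL-4, IL-7, IL-9, IL-15 and IL-21 receptors, IL12RB1 is shared by the IL-12 and IL-23 receptors, and IL6ST (gp130) is shared by the IL-6 family. The 49 probes described here were all endogenous probes of the panel whose name begins with IL and a digit, 62 in number, without IL2RA, IL2RB, IL12RB2, IL15, IL21, IL7, IL7R, IL10, IL10RA, IL32, IL13RA2, IL1R2 and IL1RL1. They made up 49 of 780 endogenous probes and covered 26 ligands, 21 receptor chains, the IL-1 receptor antagonist IL1RN and the soluble IL-22 antagonist IL22RA2. The rule reads probe names and no measured value, but it was set with earlier results of these data known.

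The RNA was extracted from soft tissue sarcomas of pet dogs that had been fixed in formalin and embedded in paraffin. It was measured with the nCounter Canine IO panel, an assay that counts barcoded hybridization probes with no amplification step. The treated tumours had been injected with IL-2 and IL-12 as collagen-binding fusion proteins. In OneDose_2d (n = 3; 2 peripheral nerve sheath tumours and 1 myxosarcoma) the tumour was excised 2 days after 1 dose. OneDose_8d (n = 3; 1 perivascular wall tumour beside 2 peripheral nerve sheath tumours) was excised 8 days after 1 dose, and TwoDose_2d (n = 4; 3 peripheral nerve sheath tumours and 1 fibrosarcoma) received a second dose on day 6 and was excised 2 days later. The untreated group (n = 7; 3 peripheral nerve sheath tumours beside 4 perivascular wall tumours) was archived tissue of sarcomas that had received no treatment, so archiving and treatment cannot be told apart in any comparison with it. The treated tumours came from 10 dogs, and the labels do not say whether each archived tumour came from a dog of its own. The injected proteins themselves are not RNA and were not measured.

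All tumours held stromal transcripts: the 7 fibroblast and mesenchymal markers on the panel (VIM, FN1, COL1A1, COL3A1, PDGFRA, PDGFRB and THY1) were above background in 17 of 17. SOX10, a nerve sheath marker, was above background in 1 of 10 tumours labelled peripheral nerve sheath tumour and in 3 of 5 labelled perivascular wall tumour, so SOX10 did not separate the labelled types. Endogenous counts per tumour were 126997 to 1752729. The libraries of OneDose_2d C, with 126997, and TwoDose_2d D, with 205118, stood apart as the shallowest. Levels are given as normalized counts, the raw count scaled to the mean level of the 20 housekeeping probes. This scaling lifted the negative controls too: they averaged 48.4 normalized counts in OneDose_2d, 11.9 in OneDose_8d and 36.1 in TwoDose_2d, against 9.65 in untreated tumours. The mean log2 value of the negative controls was higher than in untreated tumours by 1.99 in OneDose_2d, 0.31 in OneDose_8d and 1.22 in TwoDose_2d. By the ratio of the averages the lift was larger in OneDose_2d and TwoDose_2d, the groups that hold a shallow library.

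A probe was counted as above background when its raw count exceeded the mean plus 2 SD of the tumour's 8 negative controls. Of the 49 probes, 13 were above background in all 17 tumours, 24 in 3 to 16 tumours, 6 in 1 or 2 tumours and 6 in none. Of all 780 endogenous probes, 358 were above background in all 17 tumours. The 13 were the ligands IL2 and IL18, the antagonist IL1RN and the receptor chains IL1R1, IL1RAP, IL2RG, IL4R, IL13RA1, IL15RA, IL17RA, IL17RB, IL21R and IL6ST. Receptor chains were therefore above background in all 17 tumours for 10 of 21 probes, against 2 of 26 ligand probes. The ligand subunits IL12B (the IL-12 and IL-23 p40 chain), IL23A (the IL-23 p19 chain), IL11 and IL3 and the receptor chains IL5RA and IL22RA1 were below background in every tumour.

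IL12A, the p35 chain of IL-12, was above background in OneDose_2d B alone, with 38 raw counts. IL4 and IL5, cytokines of type 2 immunity, each passed in OneDose_2d C alone, with 23 and 22 raw counts. IL22RA2 passed in 1 tumour, IL9 and IL17B in 2. These transcripts were not detectable at this depth in the other tumours, which is not the same as absent. The threshold of the 2 shallow libraries was high: 163 normalized counts in OneDose_2d C and 338 in TwoDose_2d D, against 12.6 to 23.7 in untreated tumours. TwoDose_2d D had 16 of 49 probes above background, and the other 16 tumours had 24 to 33. Per tumour that was 32.7% to 67.3% of the 49, beside 53.3% to 87.9% of all endogenous probes.

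In 50% or more of the tumours of the group, 31 probes were above background in OneDose_2d, 27 in OneDose_8d, 30 in TwoDose_2d and 30 in untreated tumours. These group sizes differ, and no share of all endogenous probes by this cut is given, so the counts are a description. The probes of the middle class were IL1A, IL11RA, IL12RB1, IL16 and IL34, each in 16 tumours, IL6R in 15, IL6 and IL29L in 14, IL26 in 13, and IL17A, IL24 and IL25 in 12. IL18R1, IL18RAP and IL31RA passed in 11 tumours, IL17F and IL27 in 10, IL1RL2 and IL3RA in 7, IL13, IL19 and IL23R in 4, and IL1B and IL22 in 3.

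**Figure D1:**
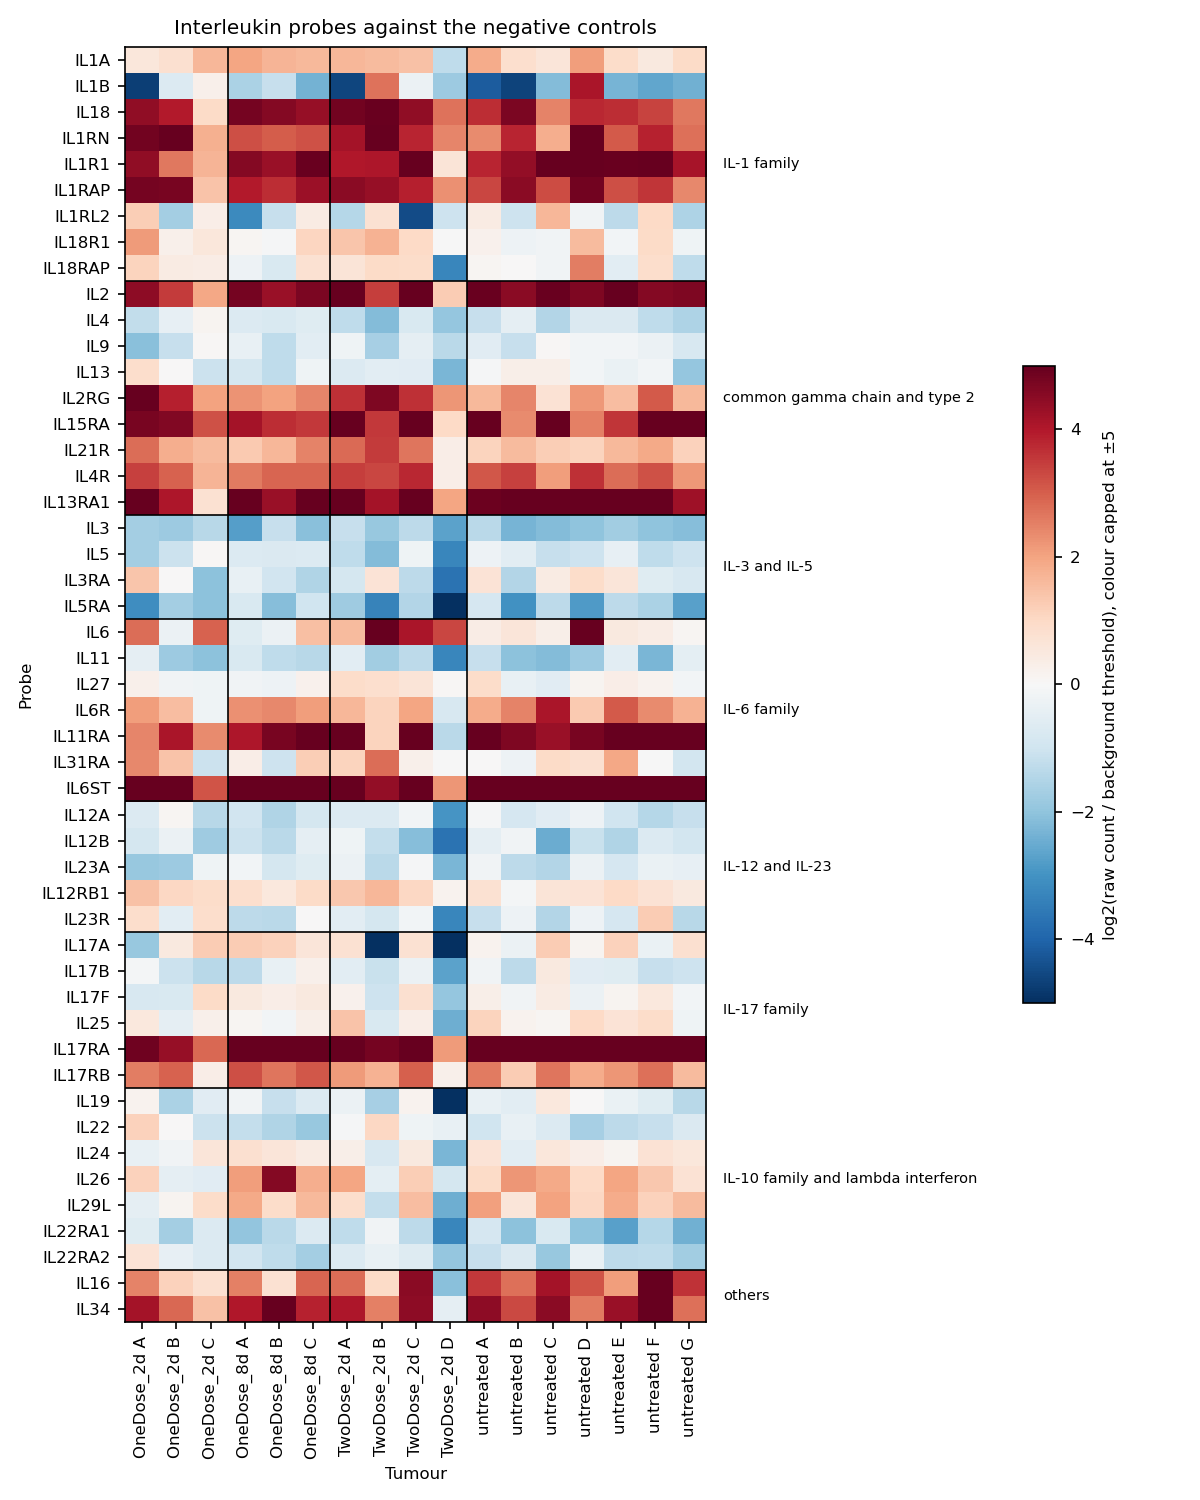
Raw count of each of the 49 probes (rows, by cytokine family) divided by the background threshold of the tumour (columns, by group), on a log2 colour scale capped at ±5, where red is above and blue below the threshold. Receptor chains such as IL6ST and IL17RA are red in all 17 tumours, while IL12B, IL23A, IL11, IL3, IL5RA and IL22RA1 are blue in all 17.

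Of the 49 probes, 37 were above background in at least 3 tumours and were tested with all 724 such probes of the panel. In OneDose_2d, 23 of 37 rose relative to untreated tumours and 0 fell (edgeR quasi-likelihood test, Benjamini-Hochberg adjusted p under 0.05), beside 47.8% of all tested probes called higher. In TwoDose_2d, 13 of 37 rose and 0 fell, beside 33.3% of all tested probes called higher. In OneDose_8d, 0 of 37 differed from untreated tumours, beside 0.0% of all tested probes. The median log2 change of the 37 probes was 1.83 in OneDose_2d, -0.05 in OneDose_8d and 0.80 in TwoDose_2d, and over all tested probes it was 1.23, 0.09 and 0.63.

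The housekeeping scaling set part of these counts. With TMM scaling, which centres the bulk of the probes, 8 rose and 2 fell (IL17RA and IL6ST) in OneDose_2d, beside 23.5% of all tested probes called higher, and 8 rose in TwoDose_2d, beside 21.5%. With background subtracted, 13 rose in OneDose_2d beside 29.8%, and 10 rose in TwoDose_2d beside 26.7%. Under TMM scaling the median of all tested probes was 0.25 in OneDose_2d and -0.05 in TwoDose_2d, and that of the 37 probes was 0.84 and 0.04. IL12RB1, IL18R1, IL21R, IL22 and IL2RG were called higher in OneDose_2d with the housekeeping scaling and also with TMM scaling, median-of-ratios scaling, background subtraction and both shallow libraries left out. In TwoDose_2d the same held for these 5 and for IL18 and IL27. IL22 passed the filter only through treated tumours, 2 of OneDose_2d and 1 of TwoDose_2d, so the filter itself favoured its calls. It was not tested with a stricter filter, and limma on the authors' deposited signal did not call it in OneDose_2d. In OneDose_2d, 13 of the 23 called probes rose by more than the mean log2 of the negative controls and 10 did not. The 10 were IL4R, IL15RA, IL17RB, IL18, IL1RAP, IL19, IL25, IL27, IL29L and IL3RA. In TwoDose_2d all 13 did, with IL17RB at 1.23 and IL4R at 1.25 beside 1.22 for the negative controls. By group averages the negative controls rose further in both groups, so fewer probes exceed them on that measure.

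**Figure D2:**
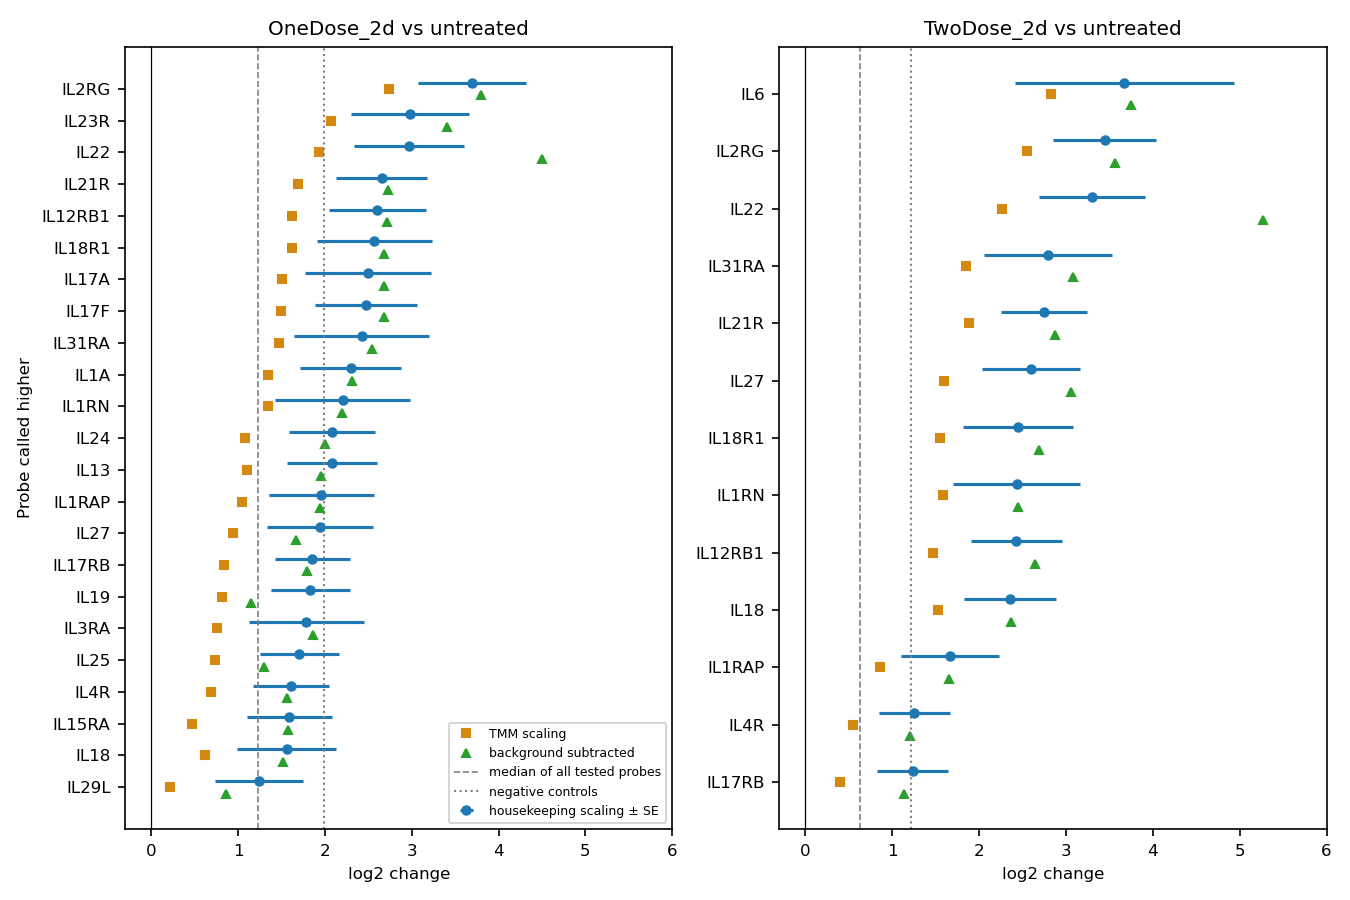
Log2 change (x axis) of each probe called higher (y axis) in OneDose_2d (left panel) and TwoDose_2d (right panel) relative to untreated tumours, with housekeeping scaling (circles, bars ± SE), TMM scaling (squares) and background subtraction (triangles). The dashed line marks the median of all 724 tested probes and the dotted line the difference in mean log2 of the negative controls. Both lines were worked out with the housekeeping scaling, so only the circles can be set against them. The IL2RG circles, at 3.70 and 3.45, lie to the right of both lines. The IL22 points are fitted values of a probe above background in 0 of 7 untreated tumours and are not measured folds.

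Among the common gamma chain and type 2 cytokine genes, 5 of 7 tested rose in OneDose_2d and 3 of 7 in TwoDose_2d. IL2RG had 1698, 909 and 664 normalized counts in the 3 OneDose_2d tumours, 88.7, 97.2 and 129.5 in OneDose_8d and 231, 1671, 220.2 and 1572 in TwoDose_2d, against 27.2 to 178 (median 61.7) in untreated tumours. Every tumour taken 2 days after a dose lay above all untreated tumours, and OneDose_8d lay within the untreated range. The log2 change of IL2RG was 3.70 (SE 0.62, edgeR adjusted p = 0.00032) in OneDose_2d and 3.45 (SE 0.59, edgeR adjusted p = 0.000365) in TwoDose_2d. IL21R, the receptor for the T cell cytokine IL-21, had 306, 217 and 484 in OneDose_2d, 46.4, 74.8 and 133 in OneDose_8d and 129, 755, 112 and 430.2 in TwoDose_2d, against 27.5 to 79.1 (median 51.7) in untreated tumours. Neither group taken 2 days after a dose overlapped the untreated group, and IL21R changed by 2.65 (SE 0.52, edgeR adjusted p = 0.000975) and 2.74 (SE 0.49, edgeR adjusted p = 0.000445). As these are bulk samples, more cells of a type and more RNA per cell cannot be told apart.

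IL4R, the receptor chain for IL-4 and IL-13, had 475, 477 and 531 normalized counts in OneDose_2d and 201, 672, 241 and 430.2 in TwoDose_2d, against 69.0 to 297 (median 137) in untreated tumours. The TwoDose_2d values overlapped the untreated ones and the OneDose_2d values did not. IL4R changed by 1.61 (SE 0.44, edgeR adjusted p = 0.00682) in OneDose_2d and 1.25 (SE 0.41, edgeR adjusted p = 0.0244) in TwoDose_2d, and the TwoDose_2d call was lost without TwoDose_2d B or D (adjusted p up to 0.189) and with the replicate letter as a block (1.18, adjusted p = 0.0608). IL15RA, which presents IL-15 to neighbouring cells, had 1206, 1517 and 1468 in OneDose_2d and 589, 759.9, 867 and 676 in TwoDose_2d, against 117 to 883 (median 459) in untreated tumours. IL15RA rose in OneDose_2d by 1.59 (SE 0.49, edgeR adjusted p = 0.0127), where the groups did not overlap, but with TMM scaling its change was 0.47 (adjusted p = 0.517). IL13, a type 2 cytokine, rose by 2.08 (SE 0.52, edgeR adjusted p = 0.00418) in OneDose_2d from 47, 36 and 10 raw counts, of which 2 were above background, against 7 to 30 (median 22) raw counts in untreated tumours.

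The probe of IL2, the T cell growth factor given as protein, was above background in every tumour. It had 990.0, 694 and 617 normalized counts in OneDose_2d, 519, 472 and 618 in OneDose_8d and 587, 732, 719 and 808 in TwoDose_2d, against 391 to 676 (median 514) in untreated tumours. The highest of 17 tumours was 2.53 times the lowest. Over the 17 tumours its log2 SD was 0.33, the lowest of the 13 interleukin and receptor probes above background in all tumours, where IL2RG had 1.93. The housekeeping probes ranged from 0.24 to 0.94. Of the 358 endogenous probes above background in all 17 tumours, 13 had a smaller log2 SD than IL2. Whether the IL2 probe reads IL2 transcript alone was not tested. IL2 was not called: its log2 change was 0.53 (SE 0.25, edgeR adjusted p = 0.0833) in OneDose_2d and 0.42 (SE 0.23, edgeR adjusted p = 0.173) in TwoDose_2d, and both turned negative with TMM scaling, to -0.49 and -0.20. IL13RA1, the receptor chain shared by IL-4 and IL-13, was above background in all tumours, from 273 to 1847 normalized counts, and was called in neither group.

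In the IL-12 and IL-23 group, the receptor chain IL12RB1 was above background in 16 tumours and IL23R in 4, while the ligand chains IL12A, IL12B and IL23A passed in 1, 0 and 0; both receptor chains rose in OneDose_2d and IL12RB1 in TwoDose_2d. IL12RB1 had 124, 126 and 305 normalized counts in OneDose_2d, 33.4, 33.9 and 45.9 in OneDose_8d and 46.6, 209, 35.8 and 378 in TwoDose_2d, against 20.8 to 39.6 (median 28.2) in untreated tumours. OneDose_2d stood clear of the untreated group, while TwoDose_2d C lay within it. IL12RB1 rose by 2.60 (SE 0.56, edgeR adjusted p = 0.00163) in OneDose_2d and by 2.43 (SE 0.53, edgeR adjusted p = 0.00181) in TwoDose_2d, and both calls held when any single tumour was left out. IL23R, the chain specific to IL-23, had 48, 25 and 38 raw counts in OneDose_2d (2 of 3 above background), 17, 22, 20 and 4 in TwoDose_2d (0 of 4) and 8 to 58 (median 11) in untreated tumours (1 of 7). IL23R rose by 2.98 (SE 0.68, edgeR adjusted p = 0.00251) in OneDose_2d, where 1 untreated tumour overlapped the treated ones.

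Of the 9 IL-1 family genes, all of which were tested, 5 rose in OneDose_2d and 4 in TwoDose_2d. IL18, a cytokine that drives interferon-gamma release together with IL-12, had 952, 947 and 312 normalized counts in OneDose_2d, 509, 579.9 and 487 in OneDose_8d and 513, 2016, 383 and 2248 in TwoDose_2d, against 91.8 to 581 (median 222) in untreated tumours. TwoDose_2d B and D stood far above all untreated tumours, and TwoDose_2d A and C lay within the untreated range. IL18 rose by 2.35 (SE 0.53, edgeR adjusted p = 0.00237) in TwoDose_2d and by 1.56 (SE 0.57, edgeR adjusted p = 0.0307) in OneDose_2d. The OneDose_2d call was lost without OneDose_2d A or B or untreated A, C or G, with adjusted p up to 0.109.

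IL18R1, the ligand-binding chain of the IL-18 receptor, had 194, 72.3 and 242 normalized counts in OneDose_2d and 47.4, 220.1, 35.0 and 334 in TwoDose_2d, against 14.7 to 71.7 (median 17.8) in untreated tumours. The lowest OneDose_2d value, that of tumour B, was barely above the highest untreated one, that of tumour D. The highest TwoDose_2d value, that of tumour D, lay below that tumour's background threshold of 338. IL18R1 was above background in 3 of 3 OneDose_2d, 3 of 4 TwoDose_2d and 3 of 7 untreated tumours. IL18R1 rose by 2.57 (SE 0.67, edgeR adjusted p = 0.00507) in OneDose_2d and by 2.45 (SE 0.63, edgeR adjusted p = 0.00611) in TwoDose_2d. Its partner chain IL18RAP had 96.8, 80.9 and 211 in OneDose_2d and 28.6, 129, 33.4 and 35.1 in TwoDose_2d, against 8.37 to 140.0 (median 14.7) in untreated tumours, and was not called in OneDose_2d, at 1.81 (SE 0.76, edgeR adjusted p = 0.0568). Without untreated D, IL18RAP was called higher in both groups. The IL18RAP value of TwoDose_2d D was below background too.

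IL1RN, the secreted antagonist of the IL-1 receptor, had 1266, 1970.3 and 555 normalized counts in OneDose_2d, 173, 192 and 213 in OneDose_8d and 322, 3550.0, 246 and 1817 in TwoDose_2d, against 58.0 to 874 (median 166) in untreated tumours. OneDose_2d C and TwoDose_2d A and C fell within the untreated range, whose highest value was untreated D. IL1RN rose by 2.20 (SE 0.78, edgeR adjusted p = 0.0277) in OneDose_2d and 2.43 (SE 0.73, edgeR adjusted p = 0.0164) in TwoDose_2d. These calls were lost without OneDose_2d A or B (adjusted p up to 0.124) and without TwoDose_2d B (0.171), in each case in that tumour's own group. IL1RAP, the signalling partner chain of the IL-1 receptor, had 1246, 1660.3 and 437 in OneDose_2d and 414, 1357, 256 and 1633 in TwoDose_2d, against 106 to 663 (median 186) in untreated tumours. Its values overlapped those of untreated tumours in both groups, and it changed by 1.96 (SE 0.60, edgeR adjusted p = 0.0135) and 1.66 (SE 0.57, edgeR adjusted p = 0.0309). The IL1RAP call was lost without OneDose_2d B, and in TwoDose_2d without B, D or any 1 of 5 untreated tumours, or with the replicate block (1.28, adjusted p = 0.0694).

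IL1A, an alarmin released by injured cells, had 65.7, 107 and 515 normalized counts in OneDose_2d and 57.1, 199, 48.5 and 140.5 in TwoDose_2d, against 25.0 to 101 (median 38.8) in untreated tumours. Its rise in OneDose_2d, 2.30 (SE 0.58, edgeR adjusted p = 0.00437), was lost without tumour C (adjusted p = 0.199). In TwoDose_2d IL1A was not called, at 1.27 (SE 0.55, edgeR adjusted p = 0.0828), and its value in tumour D lay below the background threshold. IL1B, the inflammasome-processed IL-1 cytokine, was above background in 3 tumours: OneDose_2d C with 25 raw counts, TwoDose_2d B with 263 and untreated D with 482. All other tumours had 22 raw counts or fewer. IL1RL2, the IL-36 receptor, was not called in OneDose_2d, at 2.21 (SE 1.04, edgeR adjusted p = 0.0845), and IL1R1, the signalling IL-1 receptor, was called in neither group. Over the 17 tumours IL1R1 ranged from 177 to 1120.2 normalized counts.

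**Figure D3:**
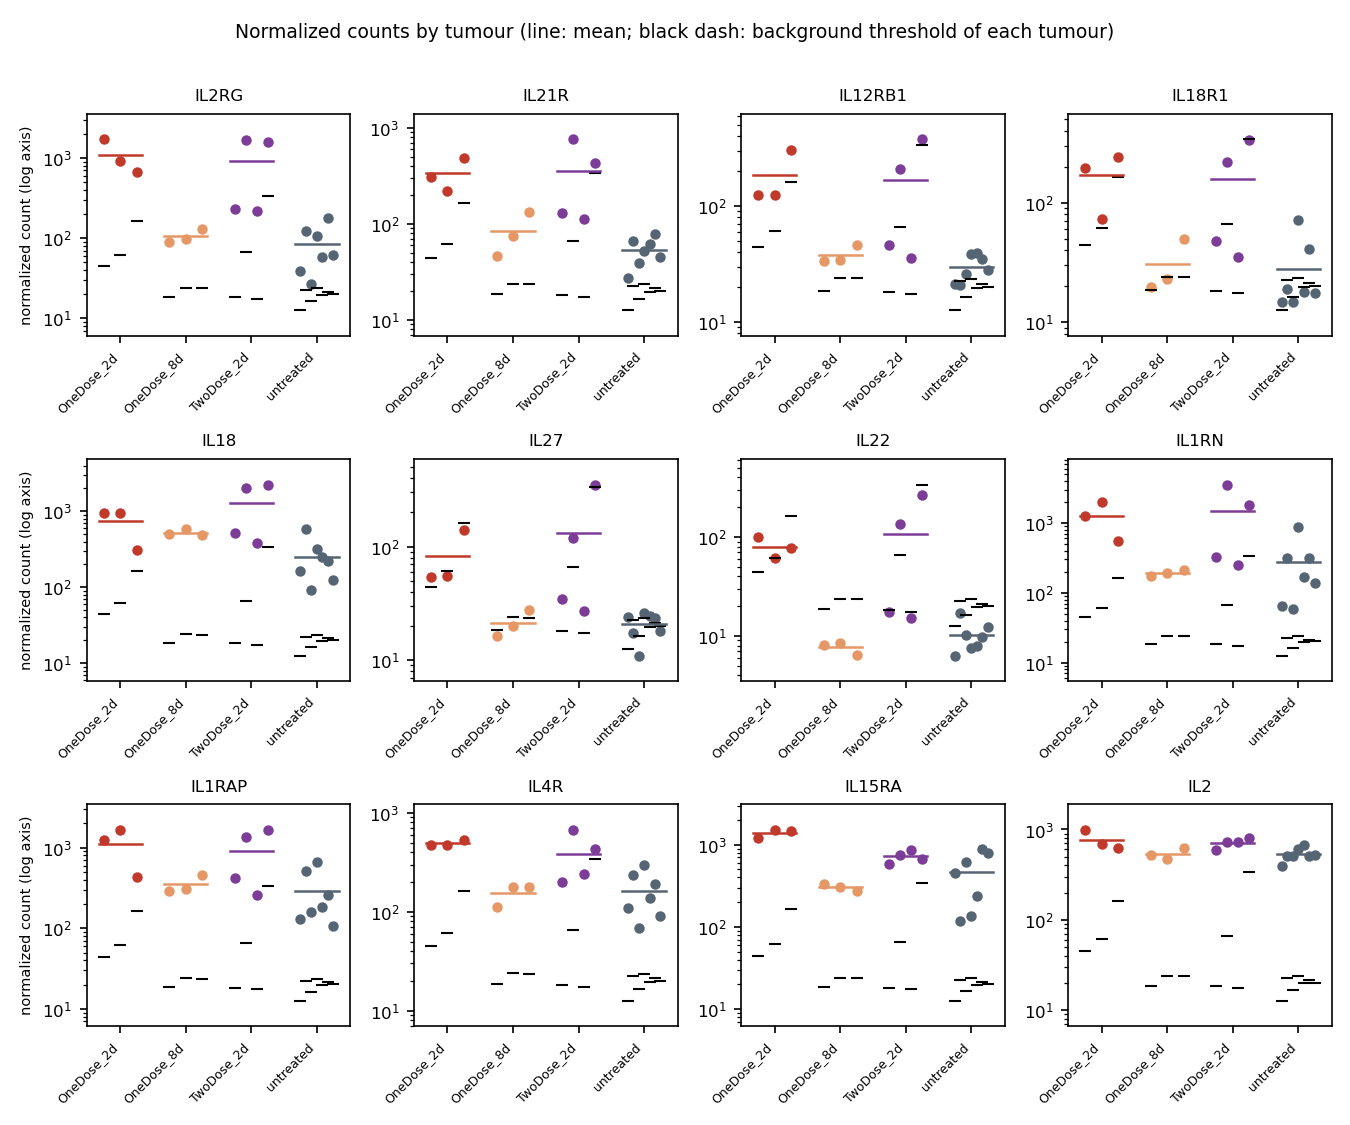
Normalized counts (y axes, log scale, each with its own range) of 12 probes in the tumours of the 4 groups (x axis); points are tumours, coloured lines are means and black dashes are each tumour's background threshold. IL2RG and IL21R in OneDose_2d and TwoDose_2d lie above all 7 untreated tumours, and IL2 lies between 391 and 990 in all 17.

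In the IL-6 family, 2 of 6 tested rose in OneDose_2d and 3 of 6 in TwoDose_2d. IL6, a cytokine of the acute inflammatory response, had 309, 49.9 and 1273 normalized counts in OneDose_2d, 12.3, 19.3 and 67.1 in OneDose_8d and 54.1, 3501, 299.8 and 3389 in TwoDose_2d, against 16.2 to 844 (median 27.2) in untreated tumours. TwoDose_2d B and D were the highest of 17, and untreated D, with 844, stood apart from the other 6 untreated tumours, which had at most 34.2. IL6 rose in TwoDose_2d by 3.67 (SE 1.26, edgeR adjusted p = 0.0313), a call lost in 8 of 17 fits that left out 1 tumour, among them those without TwoDose_2d B (adjusted p = 0.1125) or D. IL27, here the p28 chain of a cytokine made by antigen-presenting cells, had 31, 32 and 18 raw counts in OneDose_2d (1 of 3 above background), 46, 73, 34 and 40 in TwoDose_2d (4 of 4) and 15 to 34 (median 25) in untreated tumours (4 of 7). IL27 rose by 2.59 (SE 0.56, edgeR adjusted p = 0.00183) in TwoDose_2d and by 1.95 (SE 0.61, edgeR adjusted p = 0.0146) in OneDose_2d. The OneDose_2d call was lost without OneDose_2d C, and the OneDose_2d change was below the lift of the negative controls.

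IL31RA, the receptor for the itch cytokine IL-31, had 235, 167 and 78.1 normalized counts in OneDose_2d and 39.9, 458, 20.7 and 334 in TwoDose_2d, against 10.7 to 76.2 (median 21.1) in untreated tumours. The values of OneDose_2d C and TwoDose_2d D lay below the background thresholds of those tumours, 163 and 338. IL31RA rose by 2.42 (SE 0.78, edgeR adjusted p = 0.0166) in OneDose_2d, lost without tumour A. In TwoDose_2d it rose by 2.79 (SE 0.74, edgeR adjusted p = 0.00755), lost without tumour B and with the replicate block (2.74, adjusted p = 0.0518). The shared chain IL6ST had 3642, 2629.9 and 1429 in OneDose_2d and 5728, 1375, 5477 and 1563 in TwoDose_2d, against 3952 to 7137 (median 4622) in untreated tumours. All 3 OneDose_2d tumours and TwoDose_2d B and D lay below every untreated tumour, but IL6ST was not called with the housekeeping scaling and was called lower in OneDose_2d with TMM and median-of-ratios scaling. IL11RA, the IL-11 receptor, was not called in TwoDose_2d, at -1.02 (SE 0.54, edgeR adjusted p = 0.165), and IL6R was called in neither group. Over the 17 tumours IL11RA ranged from 132 to 1284 normalized counts and IL6R from 45.8 to 279.7.

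Of the IL-17 family, 4 of 5 tested rose in OneDose_2d and 1 of 5 in TwoDose_2d. IL17RB, the receptor for IL-25, had 266, 477 and 203 normalized counts in OneDose_2d, 175, 152 and 205 in OneDose_8d and 80.5, 219, 138 and 404 in TwoDose_2d, against 53.4 to 142 (median 85.9) in untreated tumours. OneDose_2d and OneDose_8d did not overlap the untreated group, and TwoDose_2d did. IL17RB rose by 1.86 (SE 0.43, edgeR adjusted p = 0.00266) in OneDose_2d and 1.23 (SE 0.41, edgeR adjusted p = 0.0256) in TwoDose_2d, where the call was lost without B, D or untreated G or with the replicate block (1.16, adjusted p = 0.0986), and it was not called in OneDose_8d, at 1.02 (SE 0.43, edgeR adjusted p = 0.984). The ligands IL17A, IL17F and IL25 had their highest normalized counts of the 17 tumours in the shallow library of OneDose_2d C. IL17A had 7, 50 and 50 raw counts in OneDose_2d, which scaled to 12.1, 86.1 and 390.5 normalized counts, against 19 to 54 (median 31) raw counts in untreated tumours.

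The log2 changes in OneDose_2d were 2.50 (SE 0.73, edgeR adjusted p = 0.01) for IL17A, 2.47 (SE 0.59, edgeR adjusted p = 0.00313) for IL17F and 1.71 (SE 0.46, edgeR adjusted p = 0.00617) for IL25. All 3 calls were lost without OneDose_2d C, with adjusted p of 0.380, 0.314 and 0.112. The IL25 change was also below the lift of the negative controls in OneDose_2d. IL17F had 15, 21 and 40 raw counts in OneDose_2d, against 22 to 35 (median 23) in untreated tumours, and IL25 had 37, 26 and 25, against 23 to 57 (median 32). In TwoDose_2d, IL17A had 41, 1, 37 and 1 raw counts, so tumours B and D were near 0. IL17RA, the shared receptor of IL-17A and IL-17F, had 1280.2, 1264 and 1187 normalized counts in OneDose_2d and 905, 1843, 1196 and 1466 in TwoDose_2d, against 783 to 1223 (median 1177) in untreated tumours. Its log2 SD over the 17 tumours was 0.355, next to that of IL2.

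In the IL-10 family and the lambda interferon, 4 of 5 tested rose in OneDose_2d and 1 of 5 in TwoDose_2d. IL22, a cytokine of T and innate lymphoid cells that acts on epithelium, had 58, 36 and 10 raw counts in OneDose_2d, 12, 11 and 7 in OneDose_8d and 23, 83, 19 and 30 in TwoDose_2d, against 8 to 19 (median 11) in untreated tumours. It was above background in OneDose_2d A and B and in TwoDose_2d B, and in 0 of 7 untreated tumours. The fit called it higher in both groups, with edgeR adjusted p of 0.00163 and 0.00054, and both calls held when any single tumour was left out. However, IL22 passed the filter only through treated tumours, and the filter was not applied anew in those fits. No fold is given, because OneDose_2d C, TwoDose_2d A, C and D and all untreated tumours lay below their background thresholds.

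IL24 and IL19, related ligands of the IL-20 receptors, rose in OneDose_2d by 2.08 (SE 0.50, edgeR adjusted p = 0.00321) and 1.83 (SE 0.45, edgeR adjusted p = 0.00396), and each was above background there in 1 of 3 tumours. IL24 had 20, 32 and 32 raw counts in OneDose_2d, against 17 to 40 (median 33) in untreated tumours, and IL19 had 29, 12 and 14, against 10 to 32 (median 16). The IL24 call was lost without OneDose_2d C (adjusted p = 0.115), and the IL19 change was below the lift of the negative controls in OneDose_2d. IL29L, named after the lambda interferon IL-29, was called in OneDose_2d at 1.24 (SE 0.51, edgeR adjusted p = 0.0495), from 19, 39 and 39 raw counts, against 38 to 90 (median 72) in untreated tumours. The IL29L call was lost in 15 of 17 fits that left out 1 tumour and with TMM scaling (adjusted p = 0.775), and without OneDose_2d C its log2 change was -0.12 (adjusted p = 0.826). IL3RA, the IL-3 receptor chain found on basophils and plasmacytoid dendritic cells, was the single tested gene of the IL-3 and IL-5 group. IL3RA rose in OneDose_2d by 1.79 (SE 0.66, edgeR adjusted p = 0.0343) from 67, 36 and 5 raw counts, against 9 to 53 (median 29) in untreated tumours, a call lost without OneDose_2d A or B or any 1 of 5 untreated tumours. The changes of IL29L and IL3RA were both below the lift of the negative controls. The remaining ligands, IL16, a chemoattractant for CD4 cells, and IL34, a ligand of the macrophage growth factor receptor CSF1R, were called in neither group. IL16 ranged from 40.9 to 689 normalized counts over the 17 tumours and IL34 from 136 to 798.

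Of the 23 probes called in OneDose_2d, 12 were also called in TwoDose_2d, which is 52.2% of the OneDose_2d list and 92.3% of the 13 in the TwoDose_2d list. The other one of the TwoDose_2d list was IL6. Both lists share the untreated tumours, so the overlap is a description. The count in TwoDose_2d was 7 without tumour B. With sarcoma type as a covariate, 11 probes were called higher in OneDose_2d and 3 in TwoDose_2d (IL21R, IL22 and IL2RG). Among the nerve sheath tumours alone 1 (IL19) and 0 were called, with 20 and 10 probes at an unadjusted p under 0.05. Shares of all tested probes are not given for these fits, so their counts cannot be set against the panel.

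Marker sums of several cell types differed between the groups. The summed level of the 7 T cell markers (CD3D, CD3E, CD3G, CD2, CD5, CD8A and TRAC) was 1566 to 2118 normalized counts in OneDose_2d, 454 to 710.1 in OneDose_8d and 1184 to 3951 in TwoDose_2d, against 150.5 to 721 in untreated tumours, and all 7 were above background in at least 1 tumour of each group. The 6 NK cell markers summed to 896 to 1499.5 in OneDose_2d, 229 to 334 in OneDose_8d and 513 to 2248 in TwoDose_2d, against 108 to 216 in untreated tumours, where NCR1 and CD160 were above background in none, as was NCR1 in OneDose_8d. The highest NK sums were in the shallow libraries, OneDose_2d C (5 of 6 markers above background) and TwoDose_2d D (2 of 6). TwoDose_2d D also had the highest T cell sum (5 of 7 above background). Scaled background makes up part of the sums of these 2 libraries. The 6 macrophage and monocyte markers, all above background in each group, summed to 6060.5 to 18823 in OneDose_2d, 6108 to 7639 in OneDose_8d and 4969 to 16963 in TwoDose_2d, against 1482 to 11601 in untreated tumours. The 6 B and plasma cell markers summed to 578 to 1306 in OneDose_2d, 306 to 920 in OneDose_8d and 416 to 10562 in TwoDose_2d, against 61.7 to 360.3 in untreated tumours. The 4 dendritic cell markers on the panel summed to 491 to 601 in OneDose_2d, 190 to 376 in OneDose_8d and 176 to 718 in TwoDose_2d, against 96.6 to 201 in untreated tumours, and CD1C was above background in no treated tumour.

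Stromal and nerve sheath markers ran lower in OneDose_2d. The 7 fibroblast and mesenchymal markers summed to 169420 to 252991 in OneDose_2d, 301382 to 500997 in OneDose_8d and 112404 to 331597 in TwoDose_2d, against 275901 to 575399 in untreated tumours. The 4 nerve sheath markers on the panel summed to 548 to 1906 in OneDose_2d, 3888 to 5403 in OneDose_8d and 377 to 4981 in TwoDose_2d, against 2106 to 7388 in untreated tumours. OneDose_2d did not overlap the untreated group in either sum, whereas the sums for mast cells, endothelium, smooth muscle and skin epithelium overlapped. SOX10 and NCAM1 were above background in no OneDose_2d tumour, and SOX10 in no OneDose_8d or TwoDose_2d tumour. The other nerve sheath markers of the sum were S100B and TUBB3. The groups differ in sarcoma type, and the share of all probes without overlap is not given. The part of any of these cell types in the differences of the 49 probes was not tested.

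The highest IL6, IL1B and IL1RN levels of the 17 tumours were all in TwoDose_2d B, which also had the highest neutrophil markers. The 7 neutrophil markers on the panel, of 8 listed, summed to 38692 in TwoDose_2d B and 35110.2 in TwoDose_2d D, against 665 in TwoDose_2d A and 786 in TwoDose_2d C. They summed to 4015, 856 and 2593 in OneDose_2d A, B and C and to 292 to 541 in OneDose_8d. In untreated tumours the sum was 8304 in D and 292 to 777 in the other 6. ELANE, which marks granulocyte precursors, was not above background in any OneDose_2d or OneDose_8d tumour. The part of neutrophils in the levels of IL6, IL1B and IL1RN was not tested.

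**Figure D4:**
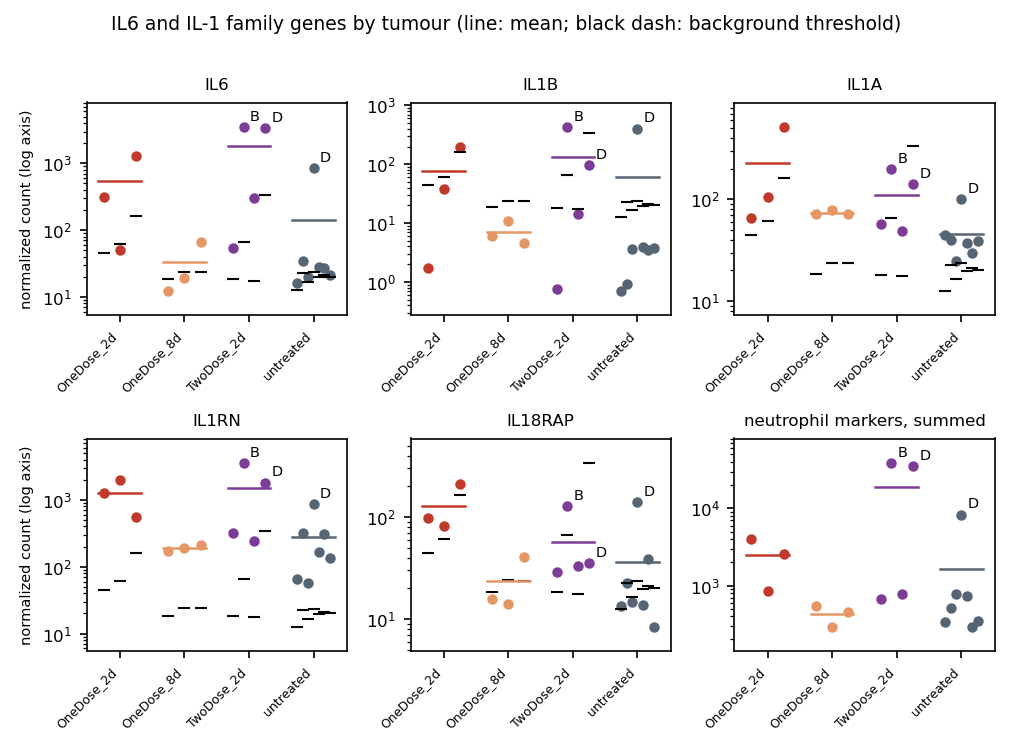
Normalized counts (y axes, log scale, each with its own range) of IL6, IL1B, IL1A, IL1RN and IL18RAP and the summed neutrophil markers in each tumour of the 4 groups (x axis), with group means as coloured lines and background thresholds as black dashes. TwoDose_2d B, TwoDose_2d D and untreated D, marked by letter, hold the 3 highest neutrophil sums, and IL6 is 844 in untreated D against at most 34.2 in the other untreated tumours.

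On day 8 after a single dose no probe of the 37 was called against untreated tumours, beside 0.0% of all tested probes; at an unadjusted p under 0.05 there were 2 with edgeR, 2 with DESeq2 and 2 with limma. IL26, a cytokine of the IL-10 family, had 79.2, 573 and 84.5 normalized counts in OneDose_8d, against 24.7 to 104 (median 53.6) in untreated tumours. The value of OneDose_8d B, from 743 raw counts, was far above all other tumours, and the other 2 lay within the untreated range. Its log2 change was 2.10 (SE 0.60, edgeR adjusted p = 0.431). IL16 had 106, 40.9 and 178 in OneDose_8d, against 85.1 to 689 (median 209) in untreated tumours, overlapping them, with a log2 change of -1.27 (SE 0.66, edgeR adjusted p = 0.984).

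Between the single-dose groups, 11 of 37 probes were lower on day 8 (OneDose_8d) than on day 2 (OneDose_2d) and 0 were higher, beside 19.2% of all tested probes called lower. The log2 changes were -3.38 (SE 0.84, edgeR adjusted p = 0.0192) for IL2RG and -3.32 (SE 0.92, edgeR adjusted p = 0.0254) for IL23R. Further receptor chains among the 11 were IL12RB1 at -2.26 (SE 0.72, edgeR adjusted p = 0.0416), IL15RA at -2.19 (SE 0.63, edgeR adjusted p = 0.031), IL21R at -1.98 (SE 0.67, edgeR adjusted p = 0.0487) and IL4R at -1.66 (SE 0.56, edgeR adjusted p = 0.0483). The ligand IL25 was at -2.04 (SE 0.58, edgeR adjusted p = 0.0297). For all 11 the 3 tumours of one group did not overlap the 3 of the other, but the 11 were picked by a call on these same tumours. The share of all tested probes without overlap is not given here. The negative controls were 1.67 lower in OneDose_8d by mean log2, and of these 7 only IL4R changed by less. By group averages, 48.4 in OneDose_2d and 11.9 in OneDose_8d, the negative controls fell further, and IL21R also changed by less. The other 4 called probes, IL22, IL13, IL19 and IL3RA, were above background in 0 of 3 OneDose_8d tumours, and no measured fold can be given for them. Their edgeR adjusted p was 0.0197, 0.0258, 0.0297 and 0.0457, and none of the 4 was called with background subtracted (adjusted p of 0.0557, 0.152, 0.290 and 0.159).

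These calls rested on few tumours: 0 of 37 were called when any 1 OneDose_8d tumour was left out, 3 without OneDose_2d C (IL13, IL22 and IL2RG) and 7 without untreated E or G. With TMM scaling 3 were lower (IL22, IL23R and IL2RG) and 1, IL26, was higher in OneDose_8d. IL2RG was the one call that held with TMM scaling, median-of-ratios scaling, background subtraction and both shallow libraries left out.

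Comparing TwoDose_2d with OneDose_8d, both excised on day 8, 3 of 37 probes were higher, beside 9.39% of all tested probes. IL2RG changed by 3.13 (SE 0.81, edgeR adjusted p = 0.0292) and IL27 by 2.55 (SE 0.75, edgeR adjusted p = 0.0441). IL22 was the remaining one (edgeR adjusted p = 0.0182, and 0.0518 with background subtracted). No measured fold can be given for it, since it was above background in 1 of 4 TwoDose_2d and 0 of 3 OneDose_8d tumours. IL2RG and IL22 did not overlap between these groups, and IL27 did. With TMM scaling IL22 and IL2RG were higher and IL26 was lower in TwoDose_2d. None of the 3 was called without TwoDose_2d B, without TwoDose_2d D or without any 1 OneDose_8d tumour, while 9 were called without TwoDose_2d A or without C and 5 without untreated D.

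Comparing TwoDose_2d with OneDose_2d, both excised 2 days after the last dose, 0 of 37 probes were called by edgeR, beside 0.0% of all tested probes. At an unadjusted p under 0.05 there were 7 with edgeR, 8 with DESeq2 and 7 with limma. DESeq2 called IL17A and IL23R lower in TwoDose_2d, and edgeR called IL17A and IL29L lower without OneDose_2d A. IL17A, IL23R and IL29L all had their highest normalized count in OneDose_2d C.

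The 12 probes left out of the test also moved when the filter was lifted. All 12 were then called higher in OneDose_2d, with log2 changes of 1.70 to 2.95 and a median of 2.09. The mean log2 of the negative controls rose by 1.99, and by group averages they rose further. In the same fit 50.9% of all 780 probes were called higher, and 85.7% of the 56 probes below the filter. IL22RA1, IL22RA2 and IL3 were called higher in TwoDose_2d, beside 32.2% of all 780 probes and 17.9% of the 56, and none of the 12 was called in OneDose_8d, beside 0.0%. For these probes the change is one of counts under the background threshold in nearly all tumours: none of the 12 exceeded 42 raw counts in any tumour.

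Genes downstream of these receptors were read from 5 lists of named signalling genes. Their counts stand beside 47.8% of all tested probes called higher in OneDose_2d and 33.3% in TwoDose_2d, or 23.5% and 21.5% with TMM scaling. Of the common gamma chain and type 2 list, 5 of 9 tested rose in OneDose_2d and 2 in TwoDose_2d; JAK3, the kinase bound to IL2RG, rose by 2.89 and 3.07 log2. With TMM scaling JAK3 was the 1 gene of this list called higher in each group, and CCL24 was lower in OneDose_2d. Of the IL-12 and IL-23 list, 4 of 8 rose in OneDose_2d and 3 in TwoDose_2d, among them the T helper 1 factor TBX21 (2.46 and 3.04) and EBI3 (2.50 and 3.21), the partner chain of IL-27. STAT4, which carries IL-12 signals, was the 1 gene of this list that fell in OneDose_2d, at -0.98. TBX21 and EBI3 were also called higher in both groups with TMM scaling.

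Of the IL-6 list, 5 of 9 rose in OneDose_2d and 3 in TwoDose_2d, with SOCS1, an inhibitor of cytokine signalling, at 3.42 and 2.87. With TMM scaling 1 of the 9 (SOCS1) was higher in OneDose_2d and 2 (OSM and SOCS1) in TwoDose_2d. Of the IL-1 and IL-18 list, 5 of 16 rose in OneDose_2d and 2 in TwoDose_2d, led by the inflammasome genes PYCARD (3.51 and 2.99) and NLRP3 (2.75 and 1.83). With TMM scaling 2 of the 16 were higher and 4 lower in OneDose_2d. Of the IL-17 and IL-22 target list, 2 of 7 rose in OneDose_2d and 4 in TwoDose_2d (LCN2, S100A8, S100A9 and S100A12), of which 3 are also in the neutrophil marker list, and 0 were called in either group with TMM scaling. With the replicate letter as a block the TwoDose_2d counts were 1 in the common gamma chain, 1 in the IL-6 and 1 in the IL-17 and IL-22 list. No gene of the 5 lists was called in OneDose_8d. The median log2 change of the lists in OneDose_2d was 0.44 to 1.62, and in TwoDose_2d 0.13 to 1.73, beside 1.23 and 0.63 over all tested probes.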

How the data were processed

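RNA from 17 canine sarcomas was counted on the nCounter panel. Per the file headers and the series' design text, the authors deposited raw counts per probe for each tumour, exported through nSolver with no normalization. The sources used here do not give its version or settings. The authors' deposited table of normalized signal, which followed the housekeeping probes, served only as an alternative. In it, the TwoDose_2d and untreated columns alone carried a small factor per probe, from -0.11 to 0.12 log2 over 33 of the 49 probes. A further deposited table of 17 columns, whose names matched no label, was not used.

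Probes were named from the files. Of the 49, 15 matched RefSeq genes of UU_Cfam_GSD_1.0 by transcript and 34 by symbol. Probes of different genes bind with different strength, so levels are compared only within a probe.

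Raw endogenous counts were tested by the robust quasi-likelihood method of edgeR 4.0.16 (R 4.3.3), with 17 tumours and 4 groups in 1 model and the geometric mean of the 20 housekeeping probes as library size. Probes above the mean plus 2 SD of the tumour's 8 negative controls in at least 3 tumours were tested (724 of 780), and a Benjamini-Hochberg adjusted p under 0.05 was called. Log2 changes carry an SE worked back from the test. The code was tested on simulated data. Alternatives were TMM and median-of-ratios scaling, DESeq2 1.42.0, limma 3.58.1 on the deposited signal, background subtraction, other filters, sarcoma type as covariate, nerve sheath tumours only, the replicate letter as block, both shallow libraries left out, and each tumour left out. Counts cover hybridization and counting error of 1 assay per tumour only, and p-values measure the spread between tumours.

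Log2 changes were printed for every member called and, against untreated, for the 3 uncalled members with the lowest p among those above background in enough tumours. For members below background in every tumour of a compared group, only fitted values are shown, in a figure or under the results flagged for a closer look. Those values are not measured folds. The members and the signalling and marker lists were chosen with earlier results of these data known. The labels tie no tumours by replicate letter. The deviations of equal letters correlated at 0.20 to 0.38 in all 4 pairs of TwoDose_2d and untreated tumours, so blocked values are given there where a call changes; in the other comparisons at least 1 pair was under 0.1 (-0.21 to 0.31). Some genes counted in the signalling and marker lists are not reported here by name.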

Additional observations from a re-analysis of the deposited data

Results flagged for a closer look

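In 4 of 74 sets of values of a probe in a group of 4 or more tumours, 1 tumour lay far from the others by Dixon's criterion, which is 5.41% of the sets, where chance gives about 1 in 20. They were IL6, IL1B and IL1A in untreated D, with 844, 402 and 101 normalized counts, and IL18RAP in TwoDose_2d B, with 129. Untreated D also had the highest neutrophil marker sum of the untreated group, 8304, and the part of neutrophils in these values was not tested.

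The change 8 days after a single dose differed from that 2 days after it for 11 probes, by the contrast of the groups itself. The log2 differences of OneDose_8d minus OneDose_2d were -3.38 for IL2RG, -3.36 for IL22, -3.32 for IL23R, -2.65 for IL3RA, -2.44 for IL13, -2.26 for IL12RB1, -2.19 for IL15RA, -2.04 for IL25, -2.00 for IL19, -1.98 for IL21R and -1.66 for IL4R. The difference of TwoDose_2d minus OneDose_8d was 3.69 for IL22, 3.13 for IL2RG and 2.55 for IL27. The values of IL22, IL13, IL19 and IL3RA are fitted values against a group with 0 of 3 tumours above background and are not measured folds; with background subtracted IL22 was at -8.32 (edgeR adjusted p = 0.0557) in OneDose_8d minus OneDose_2d and at 9.09 (0.0518) in TwoDose_2d minus OneDose_8d.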

How the results depend on the processing

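The count of 23 probes called in OneDose_2d against untreated tumours became 10 with TMM scaling, 8 with median-of-ratios scaling, 13 with background subtracted, 35 with no filter, 11 with sarcoma type as covariate and 1 among nerve sheath tumours only. The 13 of TwoDose_2d became 8 with TMM scaling, 8 with median-of-ratios scaling, 3 with sarcoma type, 0 among nerve sheath tumours and 8 with both shallow libraries left out. The 11 of OneDose_8d against OneDose_2d became 4 with TMM scaling, 4 with median-of-ratios scaling, 21 with DESeq2, 5 with limma, 1 with background subtracted, 5 with the stricter filter, 1 with sarcoma type, 0 among nerve sheath tumours and 3 with both shallow libraries left out. The 3 of TwoDose_2d against OneDose_8d became 10 with DESeq2 and 0 with limma, background subtraction, sarcoma type, nerve sheath tumours only, the replicate block or both shallow libraries left out. The 0 of TwoDose_2d against OneDose_2d became 2 with DESeq2. The causes were not tested, other than fewer tumours in the fits that leave some out. Shares of all tested probes are given above only for housekeeping and TMM scaling, background subtraction and the fit with no filter. Counts under the other settings, and those at an unadjusted p under 0.05, cannot be set against the panel.

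With each tumour left out in turn, the counts ranged from 16 to 25 (OneDose_2d against untreated), 0 to 0 (OneDose_8d), 7 to 16 (TwoDose_2d), 0 to 2 (TwoDose_2d against OneDose_2d), 0 to 15 (OneDose_8d against OneDose_2d) and 0 to 9 (TwoDose_2d against OneDose_8d). The probes above background in 50% or more of a group ranged from 36 to 41 in OneDose_2d, 27 to 33 in OneDose_8d, 24 to 30 in TwoDose_2d and 30 to 32 in untreated tumours. Leaving out 1 tumour also changed how many tumours the 50% cut asks for. In the single-dose groups the cut became easier to meet, so the count could only stay or rise. The OneDose_2d count with all tumours, given above, lay under its range. These ranges therefore do not measure dependence on single tumours alone. With the replicate letter as a block, the 6 counts were 22, 0, 9, 0, 13 and 0 in the order of the list above; IL17RB, IL1RAP, IL31RA and IL4R lost their TwoDose_2d calls. Reversed values were IL29L in OneDose_2d, which ranged from -0.12 to 1.73 with each tumour left out (the lowest without OneDose_2d C, the highest without OneDose_2d A) and was -0.12 with both shallow libraries left out, and IL2, at -0.49 with TMM and -0.56 with median-of-ratios scaling in OneDose_2d and -0.20 and -0.30 in TwoDose_2d. Depth limited the 2 shallow libraries most.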

Other observations

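Several of these genes lie side by side in the dog genome annotation, which allows neighbours to be read together. IL21R and IL4R are adjacent, and both were called higher in OneDose_2d and in TwoDose_2d. IL31RA is adjacent to IL6ST: IL31RA was called higher in both groups, while IL6ST was not. IL22 and IL26 are adjacent, and IL22 was called higher in both groups while IL26 was called in neither. IL18RAP, IL18R1, IL1RL2 and IL1R1 belong to 1 run of 6 receptor genes with no other coding gene between them, of which IL18R1 was called higher in both groups and the other 3 members in neither. IL17A and IL17F are neighbours, as are IL1A and IL1B, and of these IL17A, IL17F and IL1A were called higher in OneDose_2d and none in TwoDose_2d. The differences between neighbours were not tested.

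Within TwoDose_2d, several probes split tumours B and D from A and C, in both directions. IL2RG had 1671 and 1572 normalized counts in B and D, against 231 and 220.2 in A and C, and IL18 had 2016 and 2248, against 513 and 383. IL6ST ran the other way, with 1375 and 1563 in B and D, against 5728 and 5477 in A and C, as did IL17A, with 1 raw count in each of B and D, against 41 and 37. IL2 did not split, at 732 and 808 in B and D, against 587 and 719 in A and C. These probes were chosen after their values were seen. The scaling also lifted the negative controls, to 21.4 and 102 normalized counts in B and D, against 10.2 and 10.8 in A and C, so the excess of D over A in IL2RG and IL18 was smaller than that of its negative controls. Tumour D was the fibrosarcoma and one of the shallow libraries, and tumours A, B and C were nerve sheath tumours.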
